A study of Mus musculus with 13 samples.

Results

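The linker histone H1 genes were taken as every row of the deposited liver table whose symbol begins with H1f and a digit. They were thus chosen by symbol among the genes with a value in that table, but the gene family itself was picked with earlier results of these data known, so its levels are given as a description. This rule found 4 of the 11779 listed genes: H1f0, H1f2 (formerly Hist1h1c), H1f3 (formerly Hist1h1d) and H1f4 (formerly Hist1h1e). RefSeq names 10 mouse genes with such a symbol, and the other 6, H1f1, H1f5, H1f6, H1f7, H1f8 and H1f10, are not among the rows analysed here. H1f10 had been named beforehand as a gene of interest, and no value is given for it.

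The study asked what depletion of LL35, a long non-coding RNA also known as Falcor, does to gene expression in mouse hepatocytes. The table belongs to livers of Balb/c mice taken 5 days after injection: 3 mice were given a mix of 5 GalNAc-conjugated antisense oligonucleotides (ASOs) against LL35 (Liver LL35 ASO), and 3 were given a GalNAc-conjugated ASO against firefly luciferase (Liver Luc ASO). The labels give the dose as 150 mg/kg for each ASO, whereas the methods give that figure for the ASOs in total. The paper's text speaks of 5 conjugated LL35 ASOs, but its supplementary list of ASOs for mice names fewer. All 6 mice carried a conjugated ASO, no untreated liver belongs to this table, and GalNAc directs delivery to hepatocytes while RNA came from whole liver with its other cell types.

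What can be read here for each gene is a single value, the mean that the authors took of the normalized counts of the liver libraries. The table's remaining numeric columns are the authors' own LL35 against Luc comparison, which was not used, so the levels below describe ASO-treated liver as a whole and no difference between LL35 ASO and Luc ASO is given. No value of a single mouse was at hand, so neither an SD nor a test accompanies any level, and the reads per library are unknown. Mean normalized counts in the table started at 15.6, with a median of 235. The liver label was checked against markers: all 7 hepatocyte markers were listed, from the 99.2 percentile of the length-scaled level upwards, and Alb, the serum albumin gene, had a mean normalized count of 1217472. Kupffer cell, sinusoidal endothelial and stellate cell markers were listed too (4 of 4 each), against 1 of 4 cholangiocyte markers (Sox9) and 1 of 4 markers of T, NK and B cells (Cd3e). Erythroid markers were listed for 2 of 3 genes (Hba-a1 and Alas2). In bulk liver, fewer cells of a type and less RNA per cell cannot be told apart.

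Linker histones bind the DNA that enters and leaves the nucleosome core and help to fold the chromatin fibre. The variants encoded in the large histone gene cluster (H1f1 to H1f5 in somatic cells) are made mainly in S phase from short, intronless mRNAs that end in a stem-loop in place of a poly(A) tail. H1f0 lies alone, its mRNA is polyadenylated, and its protein is known for accumulating in differentiated, rarely dividing cells such as adult hepatocytes. H1f6, H1f7 and H1f8 are germ cell variants, and H1f10 is a further variant encoded outside the cluster. The study's libraries were made from total RNA after depletion of ribosomal RNA, so mRNAs without a poly(A) tail were not selected against at that step.

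H1f0, the replication-independent variant, had a mean normalized count of 1008, the highest of the linker histone genes, and stood at rank 1805 of 11779 listed genes. H1f4 followed at 399 and rank 4268, and H1f2 at 233 and rank 5911, next to the median of all listed genes. H1f3 had 32.2, which is 2.06 times the lowest value in the table, at rank 10734. The members therefore run from a well-expressed gene, above 84.7% of the listed genes, to a gene near the lower limit of the table, above 8.87% of them. Counts of genes of different length are not levels per molecule, so the order was also read per length.

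**Figure D1:**
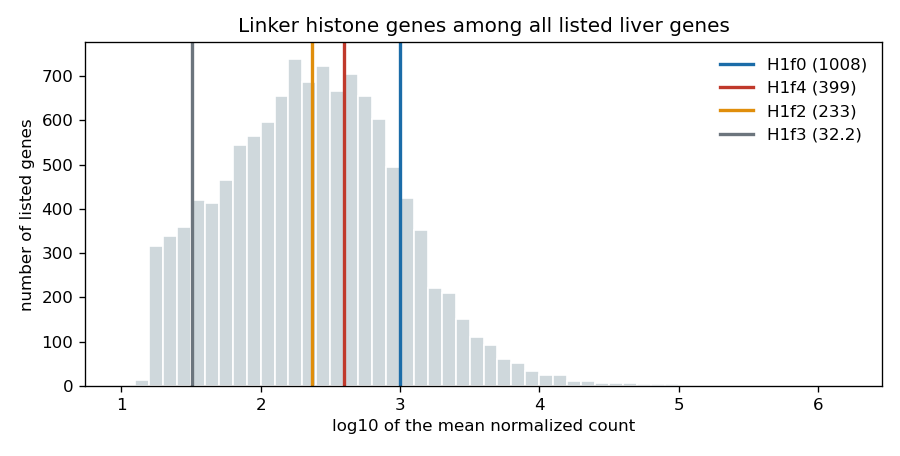
Histogram of the log10 of the authors' mean normalized count for the 11779 listed liver genes (bars, number of genes), with a vertical line for each linker histone gene and its value in the legend. H1f2 lies at the middle of the distribution, H1f4 and H1f0 to its right and H1f3 near its left end.

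Divided by the exon length in GENCODE release M21, the level of H1f0 was 491 mean normalized counts per kb, that of H1f4 was 207, that of H1f2 was 149 and that of H1f3 was 4.34. On this scale H1f0 stood 2.37 times above H1f4 and 3.28 times above H1f2, and it held 57.6% of the summed level of the listed linker histone genes. H1f4 held 24.3%, H1f2 17.5% and H1f3 0.509%. The median of all 11754 listed genes with an exon length was 51.5 per kb. H1f0, H1f4 and H1f2 lay 9.53, 4.02 and 2.90 times above it, and H1f3 lay at 0.0842 of it.

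This order depended on the gene models. GENCODE gives H1f4 an exon of 1930 bases, H1f2 one of 1560 bases and H1f3 one of 7425 bases, whereas the RefSeq genes of the same assembly have 782, 725 and 776 bases. For H1f0 the models are alike, with 2055 bases in GENCODE and 2293 in RefSeq. Per kb of RefSeq length, H1f4 came first at 511, then H1f0 at 440, H1f2 at 321 and H1f3 at 41.5. H1f4 then stood 1.16 times above H1f0, and the shares of the summed level were 38.9% for H1f4, 33.5% for H1f0, 24.5% for H1f2 and 3.16% for H1f3. So H1f3 came last and H1f4 above H1f2 with either length, while H1f0 and H1f4 changed places. Only the length was changed, and the counts stayed those made on Ensembl genes. Any reads outside the RefSeq ends are still in them and would raise the values per kb of RefSeq length. How many such reads there were is unknown. For H1f0 the RefSeq gene starts 238 bases ahead of the GENCODE start. Any reads there would be missed by counts on the GENCODE extent, which would lower the value of H1f0 per kb of RefSeq length. With no spread between mice, it cannot be said whether H1f0 and H1f4, or H1f4 and H1f2, differ beyond replicate error.

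**Figure D2:**
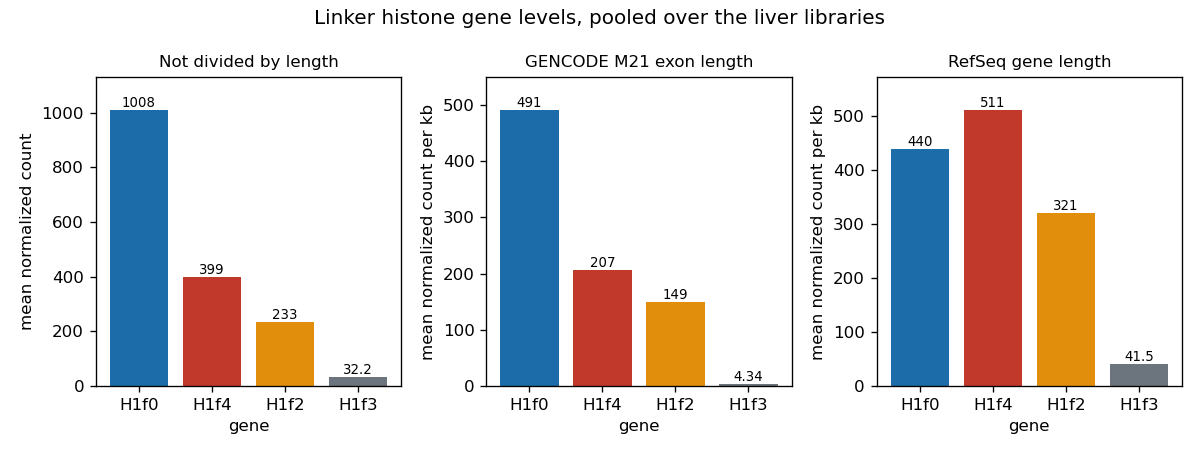
Bars start at 0 and give the authors' mean over the liver libraries for each linker histone gene, without error bars since no value per mouse was at hand: the mean normalized count (left), per kb of GENCODE M21 exon (middle) and per kb of RefSeq gene (right). H1f0 is highest in the left and middle panels (1008 and 491), and H1f4 is highest in the right panel (511). The same counts were divided in the middle and right panels, with no new counting on RefSeq genes.

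In H1f2 and H1f4 the extra length lies past the place where a replication-dependent histone mRNA ends, and in H1f3 it lies both there and ahead of the RefSeq start. A stem-loop with arms of 6 paired bases and a loop of 4 was searched after the coding region of each GENCODE transcript, on the transcript strand, with the letters of the histone consensus fixed at the ends of both arms and at 2 bases of the loop and any base elsewhere that kept the arms paired. The cluster members H1f2, H1f3 and H1f4 each held 1 match with the same letters, shown here with the paired arms in capitals, since this element is what sets these mRNAs apart from that of H1f0.
H1f2, H1f3 and H1f4 stem-loop: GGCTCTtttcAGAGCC

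The match began 25 bases past the coding region in H1f2, 32 in H1f3 and 41 in H1f4. The RefSeq genes ended 4 bases after it in H1f2 and 5 bases after it in H1f3 and H1f4, and the GENCODE exons ran on for 836, 4879 and 1148 further bases. In H1f3 the GENCODE exon also began 1770 bases ahead of the RefSeq start. H1f0 held no match in its 1198 bases past the coding region, and its transcript carried AATAAA, the usual poly(A) signal, within its last 50 bases. So did the GENCODE transcript of H1f2, but not those of H1f3 and H1f4. Among 11384 listed genes with a coding transcript, 20 (0.176%) held the stem-loop: the 3 linker histones, 12 of the 15 listed replication-dependent core histones, and 5 other genes, H2ax, which is a histone gene, D430019H16Rik, Nova2, Syncrip and Tmem164.

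**Figure D3:**
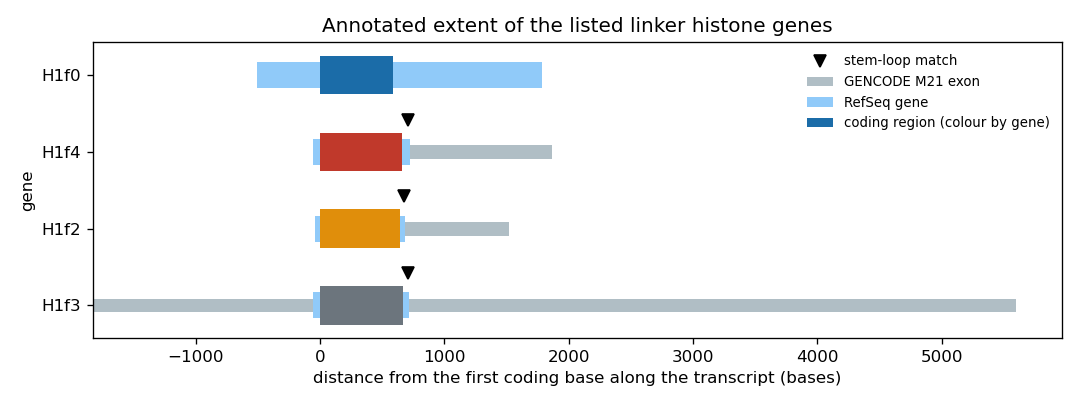
Annotated extent of each listed linker histone gene along its transcript, in bases from the first coding base: thin grey bars are GENCODE M21 exons, light blue bars are RefSeq genes, dark bars are coding regions in the colour of each gene, and triangles mark the stem-loop. In H1f4, H1f2 and H1f3 the RefSeq gene stops just past the stem-loop and the GENCODE exon goes on, whereas in H1f0, which has no triangle, both end together.

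Reads on these genes could also be shared. Between coding regions, H1f2 and H1f3 were identical at 84.1% of aligned bases, H1f3 and H1f4 at 83.9%, and H1f2 and H1f4 at 80.7%, whereas H1f0 was identical to the cluster members at 55.0 to 57.0%. The longest run of identical bases was 149 for H1f2 with H1f3, 146 for H1f2 with H1f4 and 122 for H1f3 with H1f4, and at most 17 for H1f0 with any of them. Of all windows of 50 coding bases, 25.4% of those in H1f4, 21.9% in H1f2 and 26.4% in H1f3 occurred in another GENCODE gene, in each case another of the 3, and 0 of 536 windows in H1f0 did. STAR's gene counting leaves out reads that map to several places, so the levels of H1f2, H1f3 and H1f4 can be too low in this respect. The share held by H1f0, with no shared window, can then be too high. The size of this effect was not tested. The GENCODE exon of H1f4 overlapped that of the core histone gene H2bc6 (Hist1h2be) on the same strand over 496 bases, 25.7% of its length. H2bc6 had a mean normalized count of 17.8. A second gene on the same strand, the transcribed pseudogene Gm11398, overlapped the H1f4 exon over 320 bases, 16.6% of its length, and was not among the rows analysed here. Reads on exons of several genes are also left out of such counts, which can lower the levels of H1f4 and H2bc6. The exon of H1f0 overlapped an antisense gene, Gm49544, over 163 bases, and that gene was not among the rows analysed here.

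The promoters of the listed members are shown because their RefSeq windows divide the same way. Each is the RefSeq window from 250 bases before to 50 bases after the gene's start, 5′ to 3′ on the gene's strand. The build behind the counts is not given in the sources used here, so the positions are those of the RefSeq table. Capitals mark 4 motifs, searched on both strands. They are the H1 box (AAACACA), the CCAAT box (its name gives its letters) and the TATA box in the form TATAAA or in the form TATATA, and these forms can overlap each other.
H1f2, GRCm38.p6 chr13:23738557-23738856, plus strand: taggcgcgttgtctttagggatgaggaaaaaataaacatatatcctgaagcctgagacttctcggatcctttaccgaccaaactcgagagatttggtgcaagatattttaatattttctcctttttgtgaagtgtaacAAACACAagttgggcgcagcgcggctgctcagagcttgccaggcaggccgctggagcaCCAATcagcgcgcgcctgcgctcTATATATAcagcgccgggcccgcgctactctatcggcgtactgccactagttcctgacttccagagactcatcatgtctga
H1f3, GRCm38.p6 chr13:23554782-23555081, plus strand: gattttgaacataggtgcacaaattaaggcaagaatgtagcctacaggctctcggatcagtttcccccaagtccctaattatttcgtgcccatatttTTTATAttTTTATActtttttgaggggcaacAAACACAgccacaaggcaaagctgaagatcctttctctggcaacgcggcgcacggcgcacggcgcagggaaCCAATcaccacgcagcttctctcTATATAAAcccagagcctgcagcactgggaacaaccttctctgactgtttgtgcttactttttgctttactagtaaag
H1f4, GRCm38.p6 chr13:23622509-23622808, minus strand: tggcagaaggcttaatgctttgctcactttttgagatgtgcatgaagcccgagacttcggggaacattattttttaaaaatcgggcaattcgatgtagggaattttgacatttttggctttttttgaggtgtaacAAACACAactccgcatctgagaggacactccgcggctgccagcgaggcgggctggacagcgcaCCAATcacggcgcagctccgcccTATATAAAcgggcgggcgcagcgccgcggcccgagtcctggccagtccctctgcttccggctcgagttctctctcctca
H1f0, GRCm38.p6 chr15:79027962-79028261, plus strand: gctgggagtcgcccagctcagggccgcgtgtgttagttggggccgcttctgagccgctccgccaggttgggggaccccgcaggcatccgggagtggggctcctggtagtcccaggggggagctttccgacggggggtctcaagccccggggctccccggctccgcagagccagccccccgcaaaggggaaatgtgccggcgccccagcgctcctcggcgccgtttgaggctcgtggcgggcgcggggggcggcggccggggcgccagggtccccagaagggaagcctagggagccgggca

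In each of H1f2, H1f3 and H1f4 the forward strand held, in this order, the H1 box, CCAAT and a TATA motif. The H1 box began 112, 122 and 115 bases before the start, CCAAT 54, 51 and 52 bases before it, and the TATA motif 31, 28 and 29 bases before it. CCAAT and the TATA motif were 23 bases apart, start to start, in all of these promoters, and the H1 box lay 58, 71 and 63 bases ahead of CCAAT. H1f3 held TATAAA on the other strand as well, 153 and 145 bases before the start. The window of H1f0 held none of the 4 motifs. It had a GC content of 75.0%, against 50.3% in H1f2, 45.7% in H1f3, 54.3% in H1f4 and a median of 53.0% over all promoters. The RefSeq start of H1f0 lies 238 bases ahead of the GENCODE start, so the bases just before the latter are not in this window. They were not searched, so the lack of motifs in H1f0 holds for its RefSeq window only.

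Among 32544 promoter windows of this length, 7.20% held the H1 box, 37.4% CCAAT, 13.6% TATAAA and 5.44% TATATA, and 226 (0.694%) held the H1 box, CCAAT and either TATA form together. GGGCGG, the GC box, was in 35.9% of them, and there was 1 match in the window of H1f0, 2 in that of H1f4 and 0 in those of H1f2 and H1f3. The motifs did not separate listed from unlisted members of the family. H1f5, which is not listed, held the H1 box, CCAAT and a TATA motif at 117, 53 and 30 bases before its start, and H1f6, a testis variant, held them at 114, 65 and 43. H1f1 held CCAAT and a TATA motif 23 bases apart without the H1 box, H1f8 held CCAAT on the reverse strand alone, and H1f7 and H1f10 held none of the 4. Along chromosome 13 the cluster members stand in the order H1f5, H1f3, H1f4, H1f6, H1f2 and H1f1, so the 3 listed genes are not a block of neighbours among them. A match of letters describes the window and does not show a bound site.

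**Figure D4:**
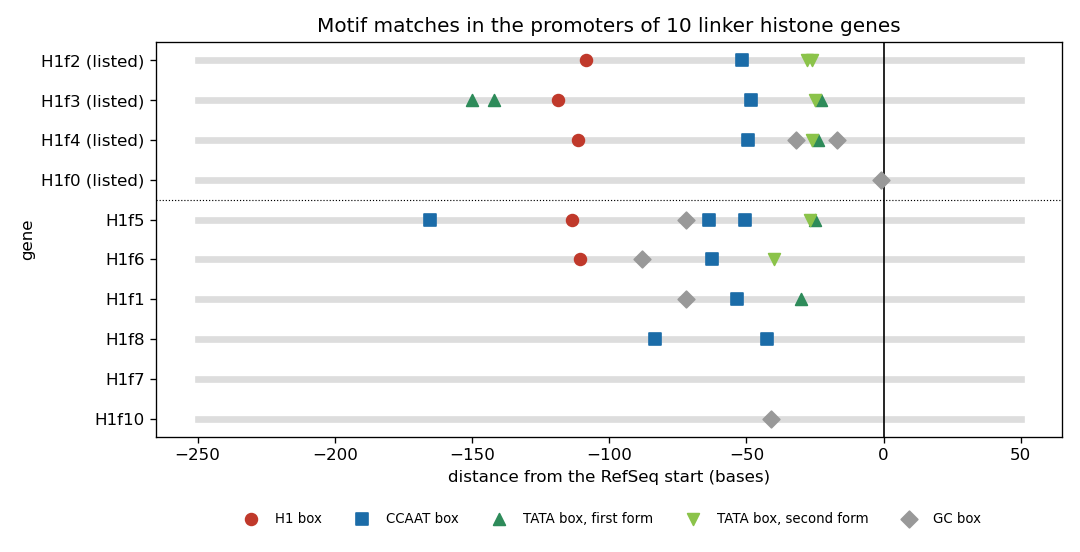
Positions of motif matches in the RefSeq promoters of 10 linker histone genes, in bases from the start (vertical line at 0): circles are the H1 box, squares CCAAT, upward triangles TATAAA, downward triangles TATATA and diamonds the GC box, with the listed genes above the dotted line. H1f2, H1f3 and H1f4 share the row of circle, square and triangle, with squares at 51 to 54 bases before the start, while H1f0 has only a GC box at its RefSeq start. The bases just before the GENCODE start of H1f0 were not searched.

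How the linker histones stood beside other chromatin genes depended on the scale. By mean normalized count, the median of the 4 listed genes was 316, below that of the linker histone chaperones and partners at 377 and above those of the other lists, which ran from 28.5 for the replication-dependent core histones to 229 for the competing architectural proteins. Per kb of GENCODE exon, the listed linker histones had a median of 178, above that of every other list, and 3 of them lay above the median of all listed genes. Each median covers listed genes only, and these were 4 of 10 linker histones, against 15 of 16 chaperones and partners. Unlisted genes have no value here, so the order of the medians holds for listed genes only. Of 59 replication-dependent core histone genes, 15 were listed, with a median of 44.9 per kb, and 6 lay above the median of all genes. The highest were H4c8 at 441, H2bc4 at 248, H4c4 at 241 and H4c3 at 217 per kb. On GENCODE lengths the top core histone genes thus lay in the range of H1f4 to H1f0. RefSeq lengths were not applied to the other lists, and their medians were not redone per longest transcript. This place beside them is therefore known for the union of GENCODE exons only. In 9 of the 15 the mean normalized count was under 50, as in H1f3. The replication-independent variants, which can enter chromatin outside S phase, had 8 of 14 genes listed and a median of 83.5 per kb. Among them H3f3b, which encodes the H3.3 histone, stood at 411 per kb, followed by H2az2 at 109, H2az1 at 95.2 and Macroh2a1 at 90.7.

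Histone mRNA factors were listed for 11 of 13 genes, with a median of 51.5 per kb. The highest were Srrt at 136, Sympk at 90.6, E2f4 at 90.2 and Cpsf3 at 81.4 per kb. Slbp, whose protein binds the stem-loop, had 15.2 per kb, Npat, the coactivator of replication-dependent histone genes, 28.4, and the U7 snRNP proteins Lsm10 and Lsm11 had 51.5 and 7.30. Among linker histone chaperones and partners, 15 of 16 genes were listed, with a median of 78.9 per kb. The highest were Ptma (prothymosin alpha) at 638, Npm1 (nucleophosmin) at 406, and Anp32a and Anp32b at 347 and 220 per kb, and Nasp, an H1 chaperone, had 27.9. The architectural proteins that compete with H1 for chromatin had 9 of 11 genes listed and a median of 31.8 per kb, with Hmgn1 at 120, Hmgn5 at 118, Hmgb1 at 86.3 and Parp1 at 76.9.

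Genes of S phase and mitosis were low. Of 19, 12 were listed, with a median of 11.9 per kb, and 1 of them, Pcna, the DNA polymerase clamp, lay above the median of all listed genes, at 71.4. Mcm7 followed at 29.0, Cdk2 at 16.7 and Rrm2 at 16.1 per kb. Mki67, the proliferation marker, had 2.34 per kb and a mean normalized count of 23.5. H1f4 and H1f2 therefore stood above every listed gene of this list. On the union of GENCODE exons H1f3, at 4.34, stood level with Mcm2, a subunit of the replicative helicase, at 4.34. This match depended on the length: per kb of the longest transcript Mcm2 had 8.63, while H1f3 stayed at 4.34. These are pooled levels of whole liver, and in which cells the transcripts were made was not tested.

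**Figure D5:**
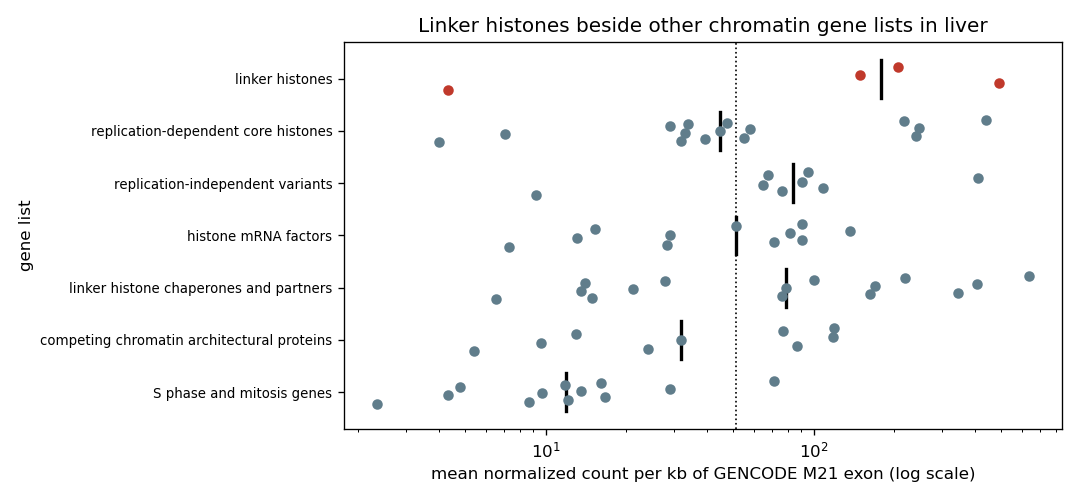
Mean normalized count per kb of GENCODE M21 exon (log axis) for each listed gene (points, spread vertically for legibility) of the linker histones and 6 other chromatin or cell cycle lists, with the median of each list (black bar) and of all listed genes (dotted line, 51.5). The linker histone median is 178 and that of the S phase and mitosis genes is 11.9.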

How the data were processed

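RNA of mouse liver (3 mice given LL35 ASOs, 3 given the Luc ASO) and of AML12 cells, a mouse hepatocyte line, was sequenced by the authors, and only the liver table was analysed here. According to the methods, the authors depleted ribosomal RNA, made stranded libraries, aligned reads with STAR 2.5.3a (version also in the submitters' processing notes), counted them on Ensembl genes and normalized them by the RLE method of DESeq2. The annotation release and the genome build are not given in the sources used here. The authors deposited for each gene the mean normalized count, used here as a signal averaged over libraries. The log2 fold change with its error, the test statistic and the raw and adjusted p-values deposited beside it are the authors' comparison and were not used. Depth per sample is unknown.

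The mean was divided by the union of GENCODE M21 exons (11754 of 11779 identifiers matched). Promoters and gene lengths came from RefSeq (GRCm38.p6), coding regions and transcripts from GENCODE. Coding regions were aligned globally, with a score of 1 per match, 0 per mismatch and -1 per gap. Named genes were all H1f genes and, of each list, mainly the up to 4 highest per kb. Slbp, Npat, Lsm10, Lsm11, Nasp, Mki67, Mcm2, H2bc6, Gm49544, Gm11398 and those with a stem-loop fall outside this rule and were named after their values were seen. The members and lists were chosen with earlier results of these data known. Alternatives changed the length, a minimum mean of 50, the promoter window and the denominator of identity. The alignment step was tested on a simulated sequence, and the motif, stem-loop and length steps on short made-up inputs. Python 3.11.15, numpy 2.4.6, pandas 2.3.3 and matplotlib 3.10.9 were used.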

Additional observations from a re-analysis of the deposited data

How the results depend on the processing

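Since no value per mouse was at hand, any change at 3 significant digits is given as a change. Using the longest transcript changed no level or share of the linker histones, because each listed member has 1 GENCODE transcript. In genes with several transcripts the union of exons can be longer, which lowers their level per kb. Sympk, for example, had 90.6 per kb of exon union and 200 per kb of its longest transcript. The percentiles, the median of all listed genes and the list medians were not redone on the longest transcript. Without division by length the values of H1f0, H1f4, H1f2 and H1f3 were 1008, 399, 233 and 32.2, their shares of the sum 60.3%, 23.9%, 13.9% and 1.92%, and their percentiles among all listed genes 84.7, 63.8, 49.8 and 8.87, against 93.1, 84.0, 78.4 and 3.12 per kb. With RefSeq lengths, chosen after the data were seen, the levels were 440, 511, 321 and 41.5 per kb and the shares 33.5%, 38.9%, 24.5% and 3.16%, so H1f0 and H1f4 changed places. With a minimum mean of 50, which leaves out H1f3, the percentiles of H1f0, H1f4 and H1f2 were 91.8, 81.2 and 74.5. Within the last 100 bases before the start, the H1 box had 0 matches in H1f2, H1f3 and H1f4, the GC box had 0 in H1f0, and TATAAA had 1 in H1f3. Over the shorter coding region, an alternative also added later, identity was 83.7% to 87.6% among H1f2, H1f3 and H1f4 and 62.6% to 63.6% with H1f0. Protein identity was not run, since no protein table was used here. No paired analysis was possible because the table holds 1 pooled value per gene, and for the same reason no replicate could be left out.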
